A study of Mus musculus with 3 samples.

Results

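The 10 genes described here are direct transcriptional targets of the tumour suppressor p53, and they were followed through blood progenitors of the newborn mouse liver. They were chosen by symbol, as Cdkn1a, Mdm2, Ccng1, Bax, Phlda3, Zmat3, Sesn2, Bbc3, Pmaip1 and Trp53inp1, among 32285 genes counted, and each had 1 row in every library. The cells were lineage-negative and KIT-positive cells sorted from liver on postnatal day 0, profiled by CITE-seq, which reads RNA and antibody tags from the same cell. Of 3 libraries, 1 came from Control mice, 1 from mice with the leukaemia fusion MLL::ENL, and 1 from MLL::ENL mice in which Skida1 was deleted, called the Skida1-deleted library below and shown as MLL-ENL, Skida1 deleted in the plots. The Control genotype, the promoter or Cre driver behind either allele, and the number of animals behind each library are absent from the labels. The study's title places Skida1 in the upkeep of MLL::ENL-expressing progenitors in the neonatal period.

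p53, encoded by Trp53, is a transcription factor that accumulates when DNA damage, oncogene signalling or ribosome stress relieves it from the ubiquitin ligase MDM2. It binds response elements made of a repeated 10-base motif and raises genes that stop the cell cycle, repair damage or trigger apoptosis, and also Mdm2, which closes a negative feedback loop. In the blood system p53 restrains stem cell division and sets how readily progenitors die after genotoxic stress. In leukaemias with MLL fusions the gene itself is seldom mutated.

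RefSeq promoter windows of build GRCm38.p6, running from 250 bases before to 50 bases after a transcription start, were found for 7 of the 10 members, with 10 windows in all. Zmat3, Pmaip1 and Trp53inp1 had no entry in that table. The p53 response element consensus was searched on both strands as a pair of 10-base motif copies with a spacer of 0 or 1 base, at most 3 mismatches and the core C and G kept. It was found in 4 windows of 4 members and in 928 of all 32851 windows (2.82%). The 4 windows with a match are printed because they are the member windows that hold a match to the consensus; the match is in capitals and everything else in lower case.
Cdkn1a, chr17:29090729-29091028, plus strand: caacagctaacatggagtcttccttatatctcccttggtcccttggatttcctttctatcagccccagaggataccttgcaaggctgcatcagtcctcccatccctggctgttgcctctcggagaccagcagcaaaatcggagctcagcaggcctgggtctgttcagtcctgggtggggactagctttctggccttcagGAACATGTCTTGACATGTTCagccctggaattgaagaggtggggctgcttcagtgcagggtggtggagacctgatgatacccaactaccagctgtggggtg
Ccng1, chr11:40755237-40755536, minus strand: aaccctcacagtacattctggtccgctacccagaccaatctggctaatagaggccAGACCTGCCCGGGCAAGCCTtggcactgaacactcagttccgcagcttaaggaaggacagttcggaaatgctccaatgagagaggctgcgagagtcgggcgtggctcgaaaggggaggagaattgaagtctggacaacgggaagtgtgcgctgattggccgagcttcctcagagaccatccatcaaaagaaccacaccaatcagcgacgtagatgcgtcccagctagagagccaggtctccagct
Bax, chr7:45466849-45467148, minus strand: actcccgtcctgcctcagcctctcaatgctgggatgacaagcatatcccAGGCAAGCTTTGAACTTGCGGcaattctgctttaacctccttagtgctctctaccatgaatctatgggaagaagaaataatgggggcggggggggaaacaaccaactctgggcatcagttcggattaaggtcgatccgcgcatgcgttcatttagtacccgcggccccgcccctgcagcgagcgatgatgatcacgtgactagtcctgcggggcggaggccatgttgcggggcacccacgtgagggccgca
Bbc3, chr7:16309333-16309632, plus strand: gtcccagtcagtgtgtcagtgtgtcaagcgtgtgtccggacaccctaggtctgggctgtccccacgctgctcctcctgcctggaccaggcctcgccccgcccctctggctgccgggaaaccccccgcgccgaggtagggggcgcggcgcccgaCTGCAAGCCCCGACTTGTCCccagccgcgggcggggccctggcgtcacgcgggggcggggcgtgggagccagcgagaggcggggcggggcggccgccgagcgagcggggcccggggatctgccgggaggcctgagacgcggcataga
The Cdkn1a and Ccng1 matches had 1 mismatch each, the Bax match 2 and a spacer of 1 base, and the Bbc3 match 3. The Cdkn1a match began 51 bases before the upstream Cdkn1a start. The window of the downstream start, chr17:29093519-29093818, held no match. A match describes letters and not binding, which was not measured. No match was found in the windows of Mdm2, Phlda3 or Sesn2, a second Cdkn1a start or the other 2 Bbc3 starts, and this says nothing about elements elsewhere in those genes.

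The matrices held 6091 barcodes in Control, 11910 in MLL::ENL and 10543 with Skida1 deleted, with 180656900, 198773992 and 207395090 gene UMIs (unique molecular identifiers, each 1 captured RNA molecule). After filtering 5510, 10154 and 9168 cells were kept, with median depths of 28501, 14685.5 and 17025.5 UMIs, and between 17 and 33 barcodes were shared by any pair of libraries. With 1 library per group no test between groups was possible, so every interval below is a 95% interval for counting error only, and animals, preparations and genotypes cannot be told apart. Cells were clustered without the members and named from marker genes as "like" a class; 5 classes had at least 100 cells in each library. These were haematopoietic stem and progenitor-like (HSPC-like) cells (1160, 1763 and 2366 cells in Control, MLL::ENL and Skida1-deleted), granulocyte progenitor-like (324, 218 and 252), megakaryocyte-like (219, 1114 and 1584), erythroid-like (3552, 6594 and 4575) and basophil-mast-like (144, 285 and 241). Control cells separated from fusion cells: Control HSPC-like cells lay in clusters 12 and 18 and fusion ones mainly in 0, 11 and 19, and Control erythroid-like cells lay mainly in clusters 9, 10, 14, 15, 21 and 24 and fusion ones in 1, 2, 3, 4, 6 and 8, so part of this may belong to the library. Cluster 1 was almost entirely MLL::ENL, with 17 Control, 2451 MLL::ENL and 24 Skida1-deleted cells. Its depth was low, at 0.277 of the library median. Levels are given as CPM, a gene's UMIs in a class for each 1000000 gene UMIs of that class. The granulocyte progenitor-like class also held monocyte-dendritic marker RNA, at 994, 524 and 369 CPM summed over 10 markers in the 3 libraries. At clustering resolution 2.0 it kept 147, 129 and 194 cells, beside a monocyte-dendritic-like cluster of 177, 89 and 59. Its mix may thus differ between libraries, and the part of this in its ratios was not tested. The basophil-mast-like class was mixed too. Its clusters 25 and 26, led by Cma1 and Tpsb2, held 1, 59 and 0 cells and 19, 22 and 6 cells in Control, MLL::ENL and Skida1-deleted. Its own 10 markers summed to 6299, 4206 and 2355 CPM, and the part of this was not tested either. Skida1 followed the labels, at 0.226, 4.75 and 0.504 CPM over all kept cells, and Kit, the sorting marker, was at 187, 199 and 228 CPM. Xist was at 644, 1038 and 2.13 CPM and the Y-linked Ddx3y at 0, 0 and 57.1 CPM, so the sex of the cells and the Skida1 deletion cannot be told apart either. The median gene lay below Control in both fusion libraries in every class, by a log2 ratio between -0.28 and -0.11, and the members' ratios are best read against that shift. A lower level in a class can reflect fewer expressing cells or less RNA per cell, and class sums do not tell these apart.

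The members fell into opposite lineage patterns. In each library Cdkn1a, Mdm2 and Trp53inp1 were past 1.5-fold lower in erythroid-like than in HSPC-like cells, while Bax, Ccng1, Zmat3 and Sesn2 were past 1.5-fold higher. Of the 9 members with at least 5 CPM in either class and 20 UMIs over both, 5 were higher and 3 lower in every library; among all genes that passed this rule 13.8% were higher and 31.7% lower in Control, 17.9% and 35.8% in MLL::ENL, and 17.3% and 36.6% in the Skida1-deleted library. The fifth higher member was Phlda3 in Control and Bbc3 in both fusion libraries.

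Cdkn1a encodes p21, the inhibitor of cyclin-dependent kinases through which p53 halts the cycle. Its level in HSPC-like cells was 19.6 CPM in Control, 19.0 in MLL::ENL and 24.0 with Skida1 deleted (383, 385 and 576 UMIs). In erythroid-like cells it was 3.56, 3.88 and 2.47 CPM (453, 517 and 305 UMIs). HSPC-like cells thus held 5.5 times the erythroid-like level in Control [4.79 to 6.32], 4.91 times in MLL::ENL and 9.74 times with Skida1 deleted [8.46 to 11.2]. In Control the order ran from granulocyte progenitor-like (22.3 CPM) over basophil-mast-like (22.1) and HSPC-like cells to megakaryocyte-like cells (11.0), and the intervals of the leading 3 classes overlapped from neighbour to neighbour. Trp53inp1, a nuclear protein that promotes autophagy and p53 activity under stress, ran the same way. Its HSPC-like level was 13, 17.8 and 13.8 CPM and its erythroid-like level 1.31, 1.99 and 1.4 CPM, a ratio of 9.92, 8.93 and 9.87. Mdm2 was at 34.2, 43.1 and 40.0 CPM in HSPC-like cells and at 19.3, 19.4 and 17.0 CPM in erythroid-like cells, which was the lowest class for Mdm2 in each library. Pmaip1, which encodes the BH3-only protein NOXA, was also lowest in erythroid-like cells and highest in basophil-mast-like cells (7.37, 9.83 and 13.9 CPM).

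The members higher in erythroid-like cells were an apoptosis effector, a cyclin, an RNA-binding protein and a metabolic regulator. Bax, the pore-forming effector of mitochondrial apoptosis, stood at 243, 183 and 162 CPM in erythroid-like cells against 128, 100 and 88.7 CPM in HSPC-like cells, a ratio of 1.91, 1.83 and 1.82. Ccng1, cyclin G1, a cofactor of phosphatase recruitment to MDM2, stood at 49.7, 39.1 and 35.3 CPM against 20.9, 17.7 and 17.1 CPM. For both genes the erythroid-like class was the highest of the 5 in each library and no interval of another class reached it. Zmat3, a zinc-finger RNA-binding protein that regulates splicing, was 3.23, 3.9 and 3.87 times higher in erythroid-like than in HSPC-like cells. Sesn2, sestrin 2, which dampens mTORC1 signalling, was 2.5, 2.2 and 3.02 times higher, although its HSPC-like sums held only 50 to 59 UMIs. Bbc3, which encodes the BH3-only killer PUMA, was 1.21 times higher in Control, 1.9 times in MLL::ENL and 1.61 times with Skida1 deleted.

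Phlda3, a pleckstrin-homology protein that competes with AKT at the membrane, was the one member whose order between these classes turned. In Control it was 1.87 times higher in erythroid-like than in HSPC-like cells [1.62 to 2.17]. In MLL::ENL the same ratio was 0.739 [0.637 to 0.861] and in the Skida1-deleted library 0.815 [0.689 to 0.97]. The plot of levels by class shows both fusion libraries below Control in erythroid-like cells, and MLL::ENL at the Control level in HSPC-like cells.

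**Figure D1:**
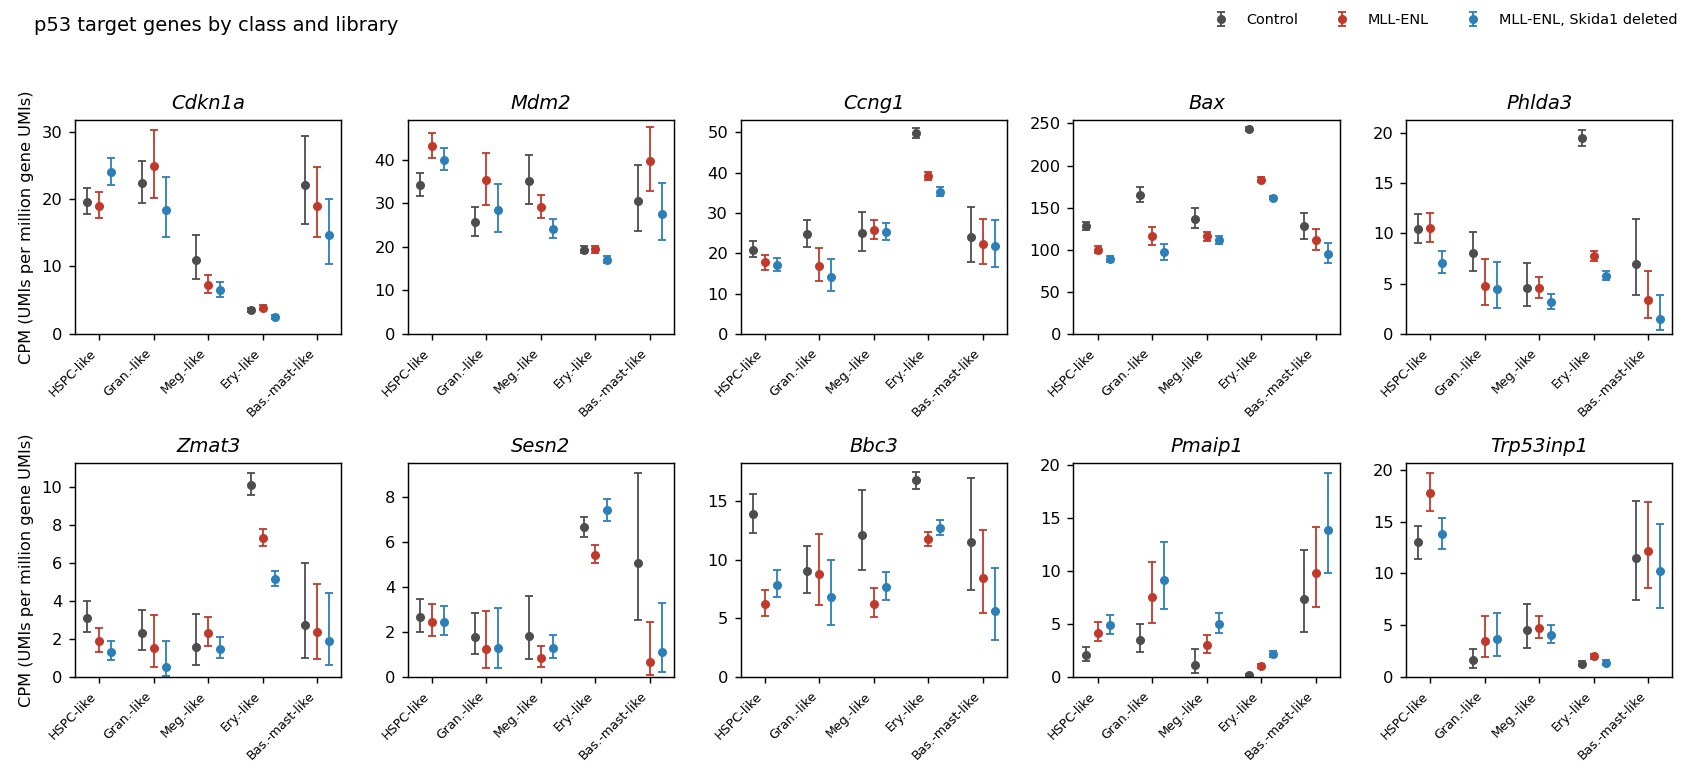
Levels of the 10 members in CPM (vertical axes from 0) in 5 classes of cells, with 1 point per library and 95% Poisson intervals. Cdkn1a and Trp53inp1 are low in erythroid-like cells and Bax, Ccng1, Zmat3 and Sesn2 are high there, while erythroid-like Phlda3 stands at 19.5 CPM in Control against 7.75 and 5.78 CPM in the fusion libraries.

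MLL::ENL was set against Control to ask how the fusion goes with p53 target levels in each class. Over the 5 classes 34 of 50 member and class pairs passed the rule on low values; 1 was higher by 1.5-fold, where 7.16% of all gene and class pairs were, and 6 were lower, where 18.4% of all pairs were. The members' shares were thus near those of all genes, and the set did not rise or fall together past 1.5-fold. These counts do not speak to smaller shifts. Ratios lay below 1 in 5 of 5 classes for Bax, Bbc3 and Sesn2 and above 1 in 5 of 5 for Pmaip1 and Trp53inp1. Ccng1, Phlda3 and Zmat3 lay below 1 in 4 classes, Cdkn1a in 3 and Mdm2 in 1. No share of all genes with such directions is given. With mitochondrial, ribosomal protein and haemoglobin genes taken out of the CPM, 5 pairs were higher and 4 lower. No share of all genes is given under that scaling, so these 2 counts are not read as a result about the members.

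Among the apoptosis genes the PUMA and NOXA transcripts differed from Control in opposite directions. Bbc3 in HSPC-like cells was at 13.9 CPM in Control, 6.23 CPM in MLL::ENL and 7.88 CPM with Skida1 deleted (271, 126 and 189 UMIs). The MLL::ENL level was 0.449 times Control [0.361 to 0.557]. In megakaryocyte-like cells Bbc3 was at 12.1, 6.24 and 7.69 CPM, a ratio of MLL::ENL to Control of 0.514 [0.366 to 0.729], and in erythroid-like cells at 16.8, 11.8 and 12.7 CPM, a ratio of 0.705 [0.66 to 0.753]. The granulocyte progenitor-like ratio was 0.976 [0.637 to 1.47]. Pmaip1 was above Control in all 5 classes of both fusion libraries. Its erythroid-like sums were 29, 139 and 268 UMIs, or 0.228, 1.04 and 2.17 CPM. The MLL::ENL sum was 4.57 times Control [3.04 to 7.07] and the Skida1-deleted sum 9.5 times Control [6.46 to 14.5], at levels below 5 CPM. In these comparisons 10.5% and 10.3% of genes with at least 20 UMIs were past 1.5-fold higher. The size depended on processing. Over 12 alternative settings the erythroid-like Pmaip1 log2 ratio ran from 0.73 to 2.34 (MLL::ENL, main value 2.19) and from 1.37 to 3.50 (Skida1-deleted, main value 3.25). In HSPC-like cells Pmaip1 was at 2.1, 4.2 and 4.88 CPM, a ratio of MLL::ENL to Control of 2.0 [1.36 to 2.98]. In granulocyte progenitor-like cells it was at 3.52, 7.54 and 9.17 CPM, with 2.14 times Control in MLL::ENL [1.26 to 3.64], the only pair past 1.5-fold higher under the rule; with cells thinned to 3000 UMIs that log2 ratio was -0.27. Bax was below Control in 5 of 5 classes, with MLL::ENL ratios from 0.701 to 0.876, none past 1.5-fold.

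Phlda3 in erythroid-like cells held the lowest ratio to Control of the members that passed the rule. Its sums were 2476, 1034 and 715 UMIs in the order Control, MLL::ENL, Skida1-deleted, or 19.5, 7.75 and 5.78 CPM. The MLL::ENL level was 0.398 times Control [0.37 to 0.428] and the Skida1-deleted level 0.297 times Control [0.273 to 0.323]; 12.8% of erythroid-like genes were past 1.5-fold lower between MLL::ENL and Control. The HSPC-like ratio was 1.01 [0.828 to 1.23], from 10.4 and 10.5 CPM. This level was not even over called cycle phases. Control and MLL::ENL stood at 9.9 and 13.2 CPM in G1, 15.1 and 8.68 CPM in S, and 7.33 and 8.9 CPM in G2M. The HSPC-like log2 ratio ran from -1.09 to 0.45 over 14 alternative settings. Control erythroid-like cells carried more granulocyte progenitor RNA than Skida1-deleted ones (summed markers 91.5, 84.6 and 25.8 CPM, 9 of 9 with UMIs) and more HSPC marker RNA (167, 118 and 108 CPM, 14 of 14 with UMIs), and less hepatocyte RNA (5.51, 9.21 and 15.6 CPM); their part in the Phlda3 result was not tested. Without the low-depth erythroid-like clusters the log2 ratio of MLL::ENL to Control was -1.31.

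The remaining ratios concern mostly the cell cycle members. Cdkn1a was at 0.971 times Control in HSPC-like cells [0.841 to 1.12] and 1.09 times in erythroid-like cells [0.957 to 1.24]. In megakaryocyte-like cells Cdkn1a was at 11.0, 7.31 and 6.57 CPM, 0.665 times Control in MLL::ENL [0.473 to 0.948], which was no longer past 1.5-fold under 9 alternative settings. Mdm2 was 1.26 times Control in HSPC-like cells [1.14 to 1.39] and 1.37 times in granulocyte progenitor-like cells [1.11 to 1.7], and level in erythroid-like cells at a ratio of 1.0 [0.95 to 1.06]. Trp53inp1 was 1.37 times Control in HSPC-like cells [1.17 to 1.62]. By called cycle phase MLL::ENL stood at 26.0 against 23.7 CPM in G1, 11.1 against 6.7 CPM in S and 14.0 against 12.8 CPM in G2M. The log2 ratio of Trp53inp1 in HSPC-like cells ran from -1.22 to 0.72 over 14 alternative settings. Zmat3 in erythroid-like cells was at 10.1 CPM in Control and 7.32 CPM in MLL::ENL, a ratio of 0.726 [0.668 to 0.79], and Sesn2 at 6.66 and 5.45 CPM, a ratio of 0.818 [0.74 to 0.904]. Phlda3 in basophil-mast-like cells, at 15 and 10 UMIs, had a ratio of 0.491 whose interval crossed 1 [0.197 to 1.17]. In granulocyte progenitor-like cells, at 73 and 19 UMIs, the Phlda3 ratio was 0.595 [0.339 to 0.996], and with cells thinned to 3000 UMIs its log2 value turned to 0.58.

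**Figure D2:**
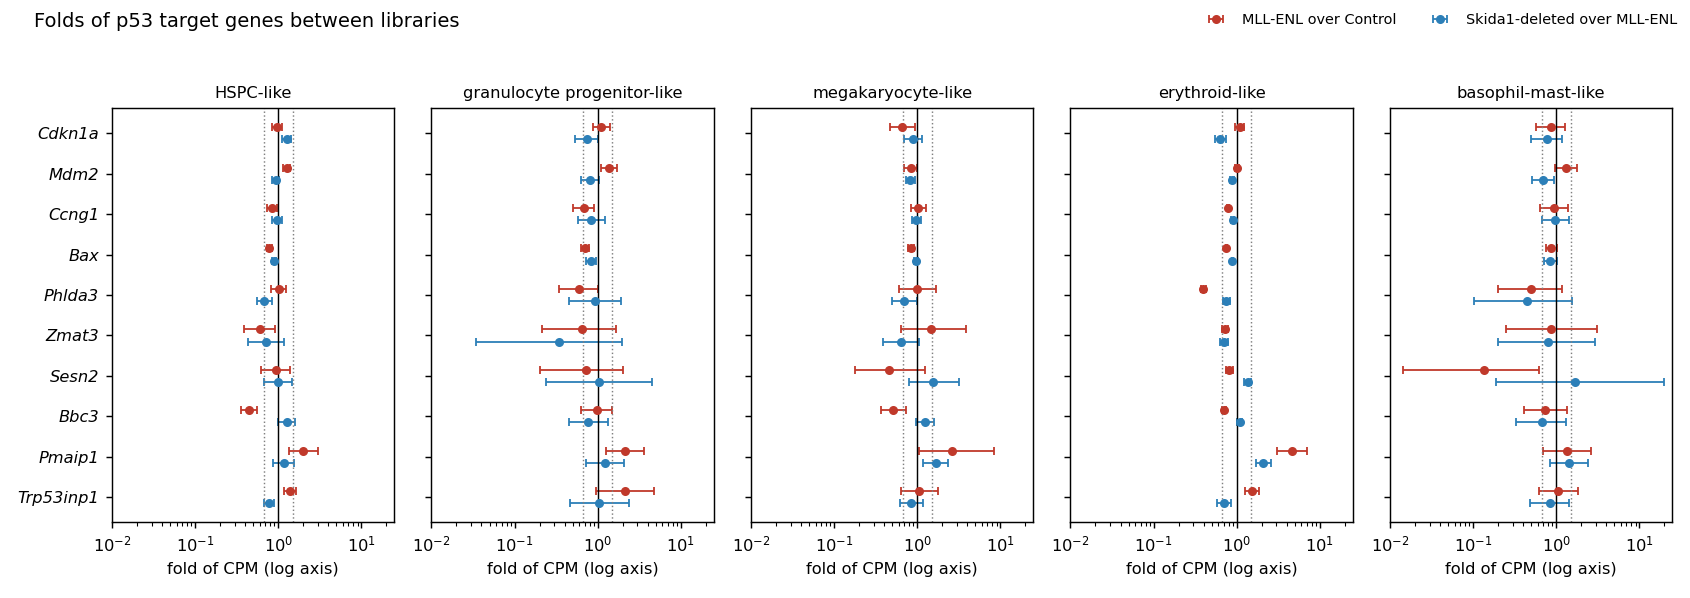
Ratios of CPM between libraries for each member in 5 classes (log axes, bars are 95% intervals from counts, dotted lines mark 1.5-fold either way). Bbc3 in HSPC-like cells (0.449) and Phlda3 in erythroid-like cells (0.398) lie left of the dotted lines for MLL::ENL over Control, and erythroid-like Pmaip1 lies right of them in both comparisons (4.57 and 2.08).

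The Skida1-deleted library was then compared with MLL::ENL, to ask what the deletion goes with when the fusion is present. Differences were smaller: of 33 pairs past the rule on low values 1 was higher by 1.5-fold and 1 lower, where 2.87% and 3.55% of all gene and class pairs were. Pmaip1 was the higher one, in megakaryocyte-like cells, at 5.03 against 3.03 CPM, a ratio of 1.66 [1.18 to 2.36]. Erythroid-like Pmaip1, below the 5 CPM rule, was 2.08 times higher [1.69 to 2.57], where 2.90% of genes with at least 20 UMIs were past 1.5-fold higher. The lower one was Bbc3 in basophil-mast-like cells, at 15 against 25 UMIs, with an interval across 1 [0.326 to 1.31].

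Cdkn1a differed in direction between lineages. In HSPC-like cells it was 1.26 times the MLL::ENL level [1.11 to 1.44], and in erythroid-like cells 0.636 times [0.55 to 0.734], where it lay below 5 CPM. By called cycle phase the erythroid-like intervals were apart in G2M (1.93 against 3.74 CPM). They overlapped in S (3.45 against 3.88 CPM) and in G1 (9.11 against 8.55 CPM). Over 13 alternative settings the erythroid-like log2 ratio ran from -0.73 to 0.09. Erythroid-like Sesn2 was 1.36 times higher [1.23 to 1.5], at 7.42 against 5.45 CPM. For Mdm2, Ccng1, Bax, Phlda3, Zmat3 and Trp53inp1 the interval lay below 1 in 3, 1, 3, 3, 1 and 2 of the 5 classes. None of their intervals lay above 1. For Pmaip1 and Sesn2 it lay above 1 in 2 and 1 classes and below 1 in none. No share of all genes with such intervals is given. Phlda3 in HSPC-like cells fell short of 1.5-fold at 0.676 [0.549 to 0.831], from 7.09 against 10.5 CPM. Erythroid-like Zmat3 did so at 0.705 [0.637 to 0.78], from 5.17 against 7.32 CPM.

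Set beside Control, which both comparisons involve, the Skida1-deleted library had 34 pairs past the rule, with 3 higher and 11 lower, where 8.60% and 23.0% of all pairs were. All 3 higher pairs were Pmaip1, in granulocyte progenitor-like (2.6 times), megakaryocyte-like (4.39 times) and basophil-mast-like cells (1.89 times). The megakaryocyte-like Control sum was 5 UMIs, and in G1-called cells alone, 14 of them in Control, that log2 ratio was -0.94. The lower pairs included Phlda3 and Zmat3 in erythroid-like cells, the latter at 0.512 times Control [0.465 to 0.564], and Bax in erythroid-like cells at 0.665 [0.653 to 0.677]. The others were Bbc3 in HSPC-like (0.568), megakaryocyte-like (0.633) and basophil-mast-like cells (0.49), Cdkn1a in megakaryocyte-like (0.598) and basophil-mast-like cells (0.663), and Ccng1, Bax and Phlda3 in granulocyte progenitor-like cells (0.572, 0.586 and 0.555). That Phlda3 log2 ratio turned to 0.49 with the stricter cell filter and to 0.39 with cells thinned to 3000 UMIs. Within the largest basophil-mast-like cluster, 16, Cdkn1a was at 20.4 CPM in Control and 14.4 CPM in each fusion library. The Bax value sat at the threshold and was within 1.5-fold under 6 alternatives. Without mitochondrial, ribosomal protein and haemoglobin genes in the CPM 5 pairs were higher and 6 lower, and with median-ratio scaling 3 were higher and 5 lower. No share of all genes is given under either scaling, so these counts are not read as a result about the members. In G1-called cells alone, 75 of them in the Skida1-deleted library, the Zmat3 log2 ratio was 0.74.

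Levels were also taken cluster by cluster in erythroid-like cells, since the libraries filled different clusters. Phlda3 spanned 10.2 to 23.0 CPM over 5 Control clusters (median 17.2), 0 to 11.8 CPM over 7 MLL::ENL clusters (median 7.5) and 4.12 to 7.91 CPM over 6 Skida1-deleted clusters (median 5.51). Clusters with at least 100 cells of a library were taken, and the 0 came from the low-depth cluster 17, whose 172 MLL::ENL cells allow up to 9.85 CPM. The Skida1-deleted clusters lay entirely below the Control ones and the MLL::ENL clusters overlapped them at 1 end. Pmaip1 spanned 0.0687 to 0.68 CPM in Control, 0 to 2.13 CPM in MLL::ENL and 0.66 to 4.58 CPM in the Skida1-deleted clusters. Bax ran from 194 to 265 CPM in Control and from 139 to 180 CPM in the Skida1-deleted library, without overlap, and from 131 to 206 CPM in MLL::ENL. For Bbc3 the MLL::ENL clusters, at 10.0 to 12.9 CPM, lay below the Control ones at 13.5 to 23.9 CPM, and the Skida1-deleted clusters, at 9.78 to 15.4 CPM, overlapped Control. Zmat3 spanned 4.5 to 12.0 CPM in Control, 5.71 to 16.0 CPM in MLL::ENL and 4.65 to 5.53 CPM with Skida1 deleted. Each fusion library overlapped Control, and the Skida1-deleted clusters lay below the MLL::ENL ones, whose highest value came from 6 UMIs in cluster 17.

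**Figure D3:**
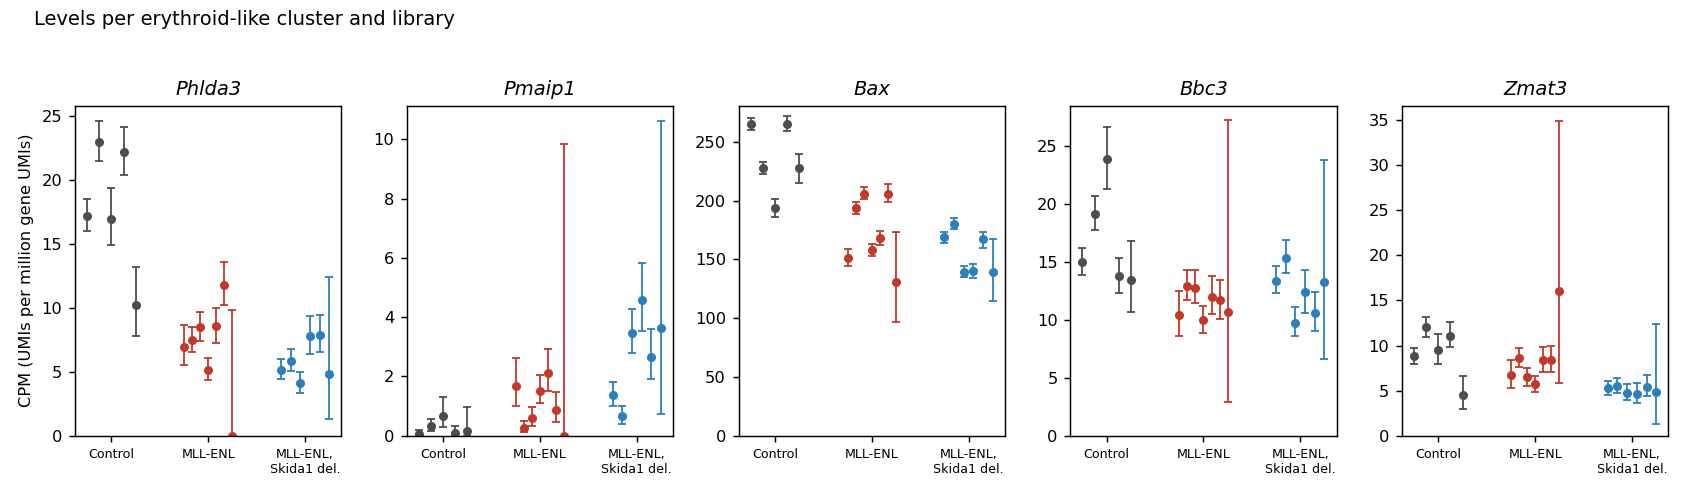
Levels of 5 members in CPM (axes from 0) in each erythroid-like cluster with at least 100 cells of a library, by library, with 95% Poisson intervals. Clusters run by number within each library. Points at the same place in different libraries need not be the same cluster. Phlda3 lies between 10.2 and 23.0 CPM in the 5 Control clusters and at or under 7.91 CPM in the 6 Skida1-deleted clusters.

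Whether the members share cells was asked by splitting each class into cells with and without a Cdkn1a UMI. With cells thinned to 3000 UMIs, 5.09% of HSPC-like cells had a Cdkn1a UMI in Control, 4.49% in MLL::ENL and 7.03% with Skida1 deleted, and 1.43%, 1.16% and 0.745% of erythroid-like cells did. No class here is known to lack Cdkn1a, so no share from free RNA could be set beside these. The other 9 members summed were 1.52 times higher in erythroid-like cells with Cdkn1a in Control [1.2 to 1.9], 1.06 times in MLL::ENL [0.802 to 1.38] and 1.15 times in the Skida1-deleted library [0.758 to 1.68]. In HSPC-like cells the same sum was 1.36 times higher in Control [1.01 to 1.78], 1.11 times in MLL::ENL [0.832 to 1.44] and 1.14 times with Skida1 deleted [0.93 to 1.4]. Thinned Phlda3 in erythroid-like cells was 4.1 times higher with Cdkn1a in Control [2.09 to 7.33], and in the fusion libraries only 4 and 1 Phlda3 UMIs remained in such cells. Bax supplied 64.4% to 65.7% of the members' erythroid-like UMIs and so dominates this sum.

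At full depth, a split chosen after the thinned one had been seen, each of the 9 other members was higher in erythroid-like cells with a Cdkn1a UMI, in all 3 libraries and with every interval above 1. Such cells numbered 258, 342 and 212, or 7.26%, 5.19% and 4.63% of the class. No share of all genes with an interval above 1 is given, so the 9 members' intervals are not set against all genes. A gene with many UMIs reaches such an interval at a small ratio, as Bax did at 1.14 in Control. Phlda3 stood at 53.8 against 16.6 CPM in Control, 28.5 against 6.29 CPM in MLL::ENL and 22.1 against 4.96 CPM in the Skida1-deleted library. These ratios were 3.25 [2.94 to 3.57], 4.53 [3.91 to 5.23] and 4.45 [3.65 to 5.39]; genes past 3-fold higher made up 0.300%, 0.0480% and 0.0363% of those past the rule. So the low Phlda3 of the fusion libraries was seen both in cells with and in cells without Cdkn1a. Zmat3 was 2.43, 2.7 and 3.12 times higher, and Trp53inp1 6.2, 3.51 and 2.77 times. Pmaip1 was 6.24, 2.66 and 2.34 times higher, the Control ratio resting on 10 and 19 UMIs. Bbc3 (1.86, 1.6 and 1.53), Ccng1 (1.63, 1.7 and 1.63), Sesn2 (1.46, 1.89 and 1.63) and Mdm2 (1.38, 1.32 and 1.48) followed, and Bax was only 1.14, 1.16 and 1.16 times higher. Trp53 itself was at 0.971, 1.04 and 1.06 times, so its RNA level did not separate these cells.

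Few other genes shared this pattern. Past 1.5-fold higher were 2.70%, 0.396% and 0.799% of erythroid-like genes in the 3 libraries, and 13 of 8045 genes (0.162%) were so in all of them. Those 13 held 4 of the 7 members that passed the rule in every library, Phlda3, Zmat3, Bbc3 and Ccng1. They also held 3 of 19 genes from a fixed list of other p53 targets. The latter were Psrc1 (2.22, 2.76 and 2.47 times), a microtubule regulator, Polk (1.67, 2.09 and 1.71 times), a translesion DNA polymerase, and Ercc5 (1.53, 1.51 and 1.55 times), a nuclease of excision repair. The other 6 were Slc19a2, Ddias, Ddit4, Ahnak, 9230114K14Rik and 2900052L18Rik, named here after their values were seen. They were neither members nor on that list, which does not mean that p53 does not regulate them. Within the erythroid-like clusters that held at least 20 cells with Cdkn1a, the Phlda3 ratio was 1.77 to 4.49 in 4 Control clusters, 1.39 to 7.51 in 6 MLL::ENL clusters and 2.9 to 5.81 in 5 Skida1-deleted clusters. The lowest, in the low-depth cluster 1, had an interval across 1. Within G1-, S- and G2M-called cells it was 2.55 to 6.09, with each interval above 1. Depth was alike on both sides of the split in Control (median 34108 against 34962 UMIs) and the Skida1-deleted library (26452 against 27385) and higher with Cdkn1a in MLL::ENL (27053.5 against 22368.5). Granulocyte progenitor markers summed to 386 against 66.7 CPM in Control, 66.9 against 85.9 CPM in MLL::ENL and 29.8 against 25.6 CPM in the Skida1-deleted library. HSPC markers summed to 230 against 162, 123 against 118 and 114 against 108 CPM, and erythroid markers to 4391 against 5111, 3519 against 3828 and 3546 against 3510 CPM. The part of these cells' RNA in the result was not tested.

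In HSPC-like cells most members had intervals across 1 in this split. Without thinning the 9 other members summed were at 1.13 times the level of cells without Cdkn1a in Control [1.05 to 1.2], 0.963 in MLL::ENL [0.892 to 1.04] and 0.987 with Skida1 deleted [0.919 to 1.06]. With 240, 314 and 456 cells holding a Cdkn1a UMI, Phlda3 was at 1.25 [0.907 to 1.69], 0.999 and 0.953 times the level of cells without one. Mdm2 was at 0.957, 0.907 and 0.801 times, and Trp53inp1 at 0.42 in Control [0.28 to 0.61], 0.84 and 0.824. Above 1 by interval were Ccng1 in Control at 1.41 [1.14 to 1.74] and Bax in Control at 1.21 [1.11 to 1.32]; in the fusion libraries Ccng1 was at 0.83 and 0.968 and Bax at 1.03 and 1.1, all with intervals across 1. Past 1.5-fold higher were 1.38%, 1.03% and 0.745% of genes, and 6 of 9168 (0.0654%) in all libraries; 0 of 6 members and 0 of 21 other p53 targets were among them. The 6 were Elane, Ctsg, F13a1, Anxa3, Atp8b4 and Pdia5, of which Elane and Ctsg encode neutrophil granule proteases. Granulocyte progenitor markers summed to 3631 against 2096 CPM in Control, 2858 against 1926 CPM in MLL::ENL and 2875 against 1972 CPM with Skida1 deleted, and cells with Cdkn1a were deeper (median 19148.5 against 14254, 13540.5 against 9498, and 11382.5 against 8554 UMIs); their part in the result was not tested. The difference between the classes was not tested, because each class holds 1 value per library.

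**Figure D4:**
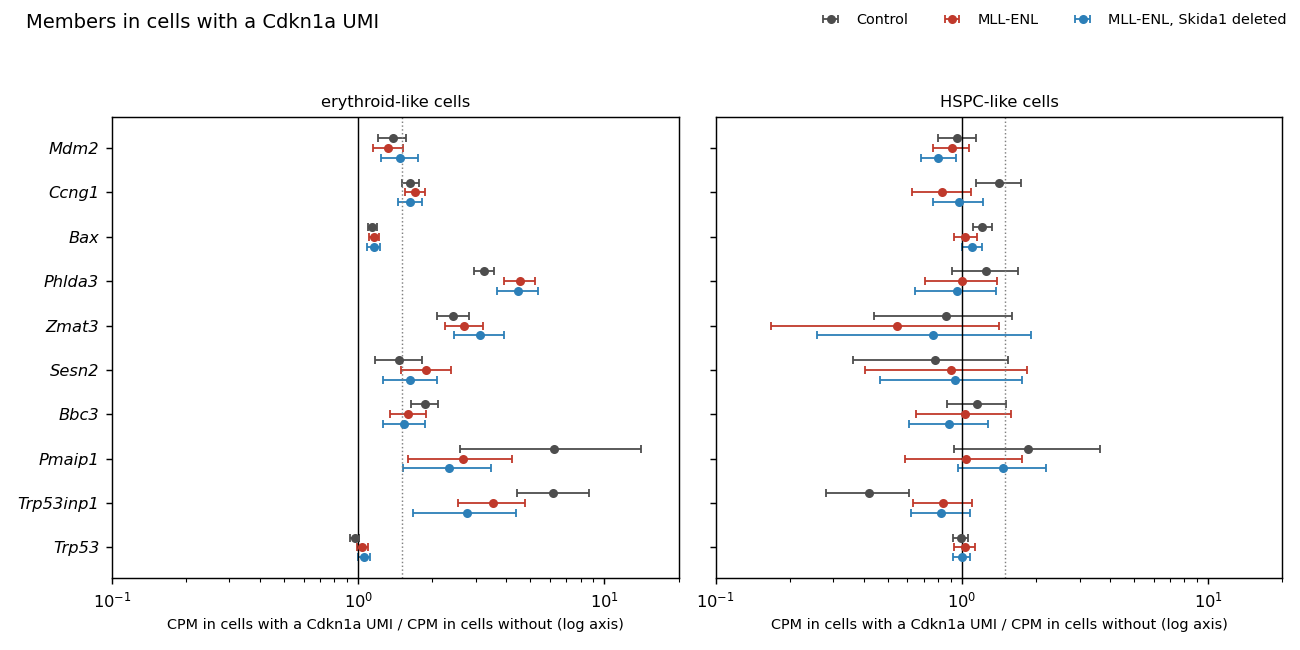
Ratio of CPM in cells with a Cdkn1a UMI to CPM in cells without one, for the other 9 members and Trp53 (log axes, bars are 95% intervals from counts, the solid line is 1 and the dotted line 1.5). In erythroid-like cells every member lies right of 1 in all libraries, with Phlda3 between 3.25 and 4.53, while in HSPC-like cells Phlda3 lies between 0.953 and 1.25.

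The cycle phases of the cells differed between libraries as well. In HSPC-like cells 31.2% were called G1 in Control, 53.8% in MLL::ENL and 48.1% with Skida1 deleted, from cells thinned to 3000 UMIs; in erythroid-like cells the shares were 3.91%, 2.16% and 1.75%. Free RNA enters such calls, and its part was not tested. Trp53inp1 in HSPC-like cells was 1.85, 1.85 and 1.82 times higher in G1 than in G2M, and Sesn2 2.1, 2.83 and 2.36 times. Bbc3 was 1.73, 2.72 and 1.72 times higher in G1. Its lower level in the fusion libraries was seen in every phase: 21.1, 9.84 and 11.1 CPM in G1, 11.8, 4.34 and 5.83 CPM in S, and 12.2, 3.62 and 6.47 CPM in G2M for Control, MLL::ENL and Skida1-deleted. For Cdkn1a in HSPC-like cells the G1 over G2M ratio had an interval across 1 in Control (0.947 [0.686 to 1.29]) and MLL::ENL (0.878 [0.69 to 1.12]) and lay above 1 with Skida1 deleted, at 1.27 [1.04 to 1.55]. In Control it peaked in S, at 27.6 CPM against 15.1 in G1 and 16.0 in G2M. Erythroid-like cells differed, with Cdkn1a 3.62, 2.28 and 4.72 times higher in G1 than in G2M, from 26, 21 and 12 UMIs in G1. Zmat3 in G1 HSPC-like cells stood at 8.08 CPM in Control against 2.17 and 2.13 CPM in the fusion libraries (31, 17 and 17 UMIs).

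**Figure D5:**
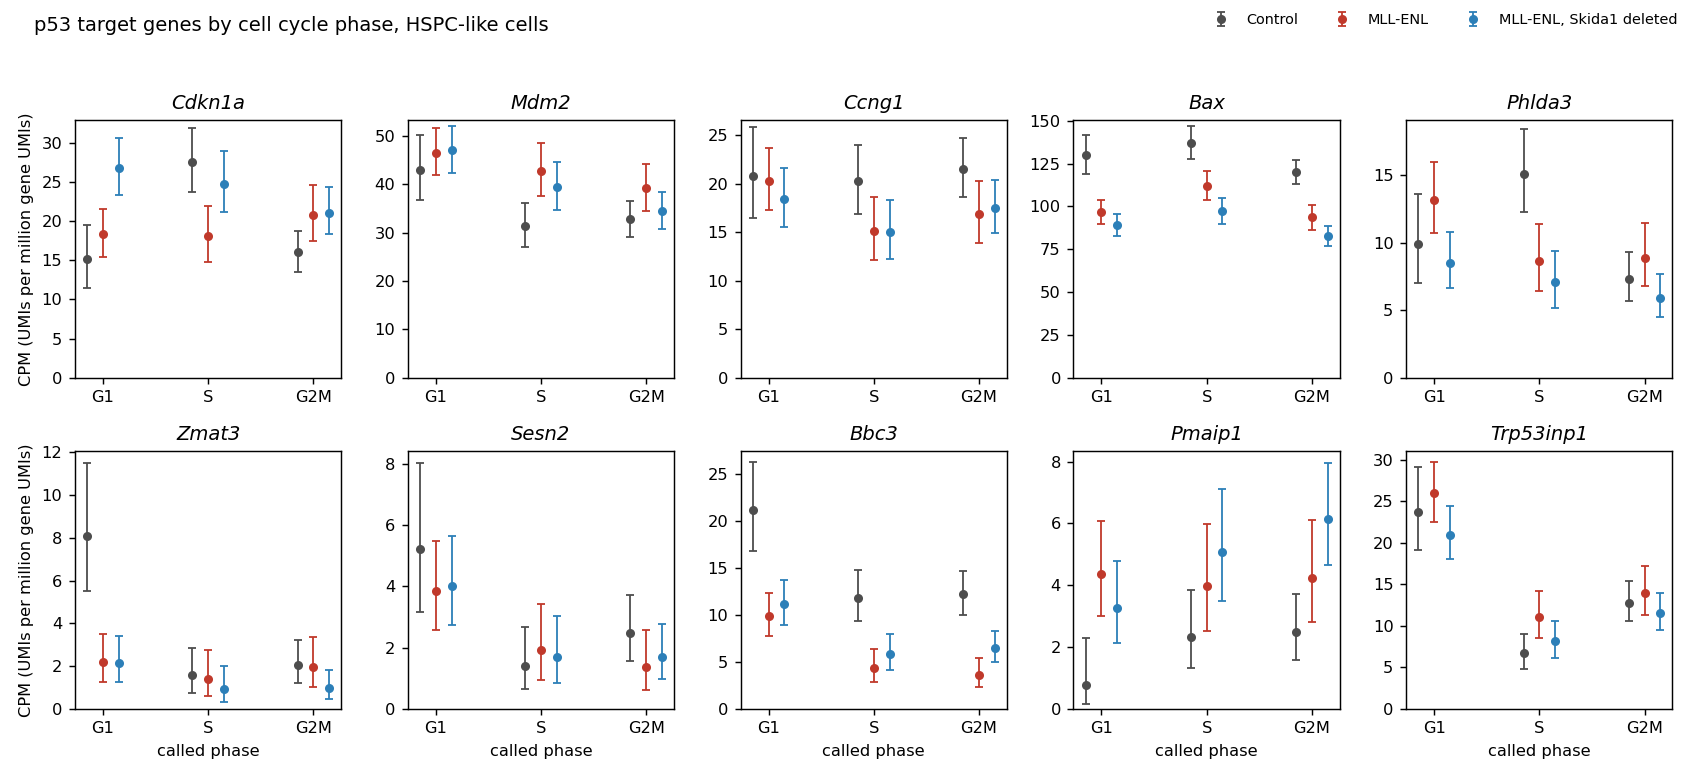
Levels of the 10 members in CPM (axes from 0) in HSPC-like cells called G1, S or G2M, by library, with 95% Poisson intervals. Bbc3 in Control lies above both fusion libraries in each phase, at 21.1 against 9.84 and 11.1 CPM in G1, and Trp53inp1 is highest in G1 in each library.

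Trp53 and the genes around it completed the pathway. Trp53 RNA in HSPC-like cells was at 193 CPM in Control, 120 in MLL::ENL and 130 with Skida1 deleted, a ratio of MLL::ENL to Control of 0.62 [0.589 to 0.653], and it lay below Control in 5 of 5 classes of both fusion libraries. Of 19 fixed p53 regulators 18 passed the rule in HSPC-like cells; 1 was higher and 4 lower in MLL::ENL, with a median log2 ratio of -0.02, where 7.52% of all genes were higher and 15.8% lower. The lower ones were the checkpoint kinases Chek2 (0.329) and Chek1 (0.42), the damage kinase Atm (0.576) and Trp53, and the higher one was Rpl23 (1.62), a ribosomal protein that binds MDM2. Chek2 was low in all 5 classes, at 0.329 to 0.419 times Control. Of 33 other p53 targets 22 passed the rule, with 0 higher and 3 lower at a median of -0.04: Ddb2 (0.421), a damage-recognition protein, Ckap2 (0.494), a spindle protein, and Psrc1 (0.52). Between the Skida1-deleted and MLL::ENL libraries 1 of 21 such targets was lower, Btg2 (0.659), an antiproliferative gene, and 0 of 18 regulators differed by 1.5-fold, where 1.73% of all genes were higher and 1.22% lower. In erythroid-like cells 2 of 21 other targets were lower in MLL::ENL and 0 higher, with a median of -0.31, where 4.93% of all genes were higher and 12.8% lower. The other classes had more such targets past 1.5-fold. In granulocyte progenitor-like cells 2 of 22 were higher and 9 lower (median -0.34; all genes 7.05% and 20.5%). In megakaryocyte-like cells 1 of 22 was higher and 7 lower (median -0.32; all genes 6.38% and 24.2%). In basophil-mast-like cells 2 of 22 were higher and 5 lower (median -0.22; all genes 9.68% and 18.3%).

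Across the 15 sums of class and library the genes with the most similar course to the members summed were Psmd9 (Pearson correlation 0.947 of log2 values), Armc1 (0.939), Tusc2 (0.935) and Nup54 (0.932), among 7676 genes with a mean of at least 10 CPM. The sums share libraries and depth, and Bax gave 42.8% to 65.7% of the members' UMIs, so this describes mainly the course of Bax. Between members the same measure ran from 0.915 for Ccng1 with Zmat3 to -0.84 for Cdkn1a with Ccng1, matching the opposite lineage patterns above.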

How the data were processed

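CITE-seq libraries of polyA RNA from sorted newborn liver cells, 1 per group, were used as deposited. The values are raw UMI counts per gene and cell barcode, not normalized, per the file headers from Cell Ranger 6.1.2; per the submitters' processing notes the version was 6.0.1 and the build mm10. Depth was 180656900 to 207395090 gene UMIs per library. The labels name no cell filter or annotation by the authors. The antibody tags were not used here.

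The cell filter asked for 1000 UMIs, 500 genes and a mitochondrial share below 10%. Scrublet in scanpy 1.11.5 called 0 doublets in the MLL::ENL library, so in every library the top-scoring cells were taken out at 0.8% per 1000 cells (267, 994 and 794 cells). The libraries were clustered together without integration (leidenalg 0.10.2, resolution 1.0, 30 principal components, 15 neighbours, 2000 variable genes without the members, other p53 genes, mitochondrial, Rpl, Rps or sex-linked genes). Clusters were named by the class whose markers were most frequent in the top 50 genes, given 3 markers at 1.5-fold, and were left unnamed where another class had more among its top 10 genes or where depth was low (below the library median divided by 3) without a marker among those.

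UMIs were summed per library and class and divided by all gene UMIs of the class (CPM). Intervals are 95% exact Poisson for CPM and exact conditional binomial for ratios (scipy 1.17.1). A ratio past 1.5-fold was counted where either side had at least 5 CPM and both together at least 20 UMIs; the steps were tested on simulated data. No p-value was computed. Phases were called on cells thinned to 3000 UMIs. All members were named; of the 2 wider lists up to 6 genes per comparison with the largest change in HSPC-like cells were eligible, and for likeness the 4 genes with the highest correlation. The members, lists and rules were chosen with earlier results of these data known. The full-depth split by Cdkn1a, the cluster levels, the rule of 20 UMIs alone and the removal of low-depth erythroid-like clusters were added after seeing the data.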

Additional observations from a re-analysis of the deposited data

Results flagged for a closer look

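Results are given here where a ratio between libraries ran in opposite directions in 2 classes with both counting intervals off 1; with 1 library per group the difference itself was not tested. Cdkn1a in the Skida1-deleted library was 1.26 times the MLL::ENL level in HSPC-like cells and 0.636 times in erythroid-like cells. That erythroid-like log2 ratio ran from -0.73 to 0.09 over 13 alternative settings. Against Control Cdkn1a was 1.22 times in HSPC-like cells and 0.598 times in megakaryocyte-like cells. Mdm2 in the Skida1-deleted library was 1.17 times Control in HSPC-like cells and 0.687 times in megakaryocyte-like cells. Erythroid-like Mdm2 also lay below Control, at 17.0 against 19.3 CPM. Sesn2 against Control was 1.11 times in erythroid-like cells and 0.223 times in basophil-mast-like cells, where the sums were 3 and 11 UMIs.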

How the results depend on the processing

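Of 23 ratios of a member past 1.5-fold in a class, 17 kept their sign under each of the 15 alternatives that gave a value and 6 did not; the cause was not tested. Erythroid-like Phlda3 in MLL::ENL against Control ran from -1.52 to -1.12 (log2), HSPC-like Bbc3 from -1.18 to -0.60, the last with a strict cell filter that left 32 Control cells. Counts of pairs past 1.5-fold higher or lower, in MLL::ENL against Control (1 higher, 6 lower), Skida1-deleted against MLL::ENL (1 and 1) and Skida1-deleted against Control (3 and 11), moved as follows. Counting 20 UMIs alone gave 6, 3 and 6 higher, where 9.94%, 4.35% and 11.0% of all gene and class pairs were. It gave 3 lower in the middle comparison, where 6.07% of all pairs were. No share of all genes is given for the settings that follow, so their counts are not set against all genes. Asking for 20 CPM and 100 UMIs gave 0, 0 and 0 higher and 0, 0 and 3 lower. Resolution 0.5 left no granulocyte progenitor-like class and named a cluster of 786 cells monocyte-dendritic-like. It gave 0, 0 and 1 higher, and 3 lower and 7 lower against Control. Resolution 2.0 gave 2 higher in MLL::ENL against Control, the strict filter 5, and no doublet removal 0. CPM without mitochondrial, ribosomal protein and haemoglobin genes gave 5 higher for both fusion libraries against Control and 6 lower for Skida1-deleted. Median-ratio scaling gave 2 higher in MLL::ENL against Control, 0 lower between fusion libraries, and 5 lower for Skida1-deleted against Control. Thinned cells gave 2 and 3 higher in the first and second comparison and 4 lower in the second. G1 cells alone gave 5, 0 and 5 higher and 4 lower in the second; adding 1 to the CPM gave 0 higher and 0 lower there, and classes from a marker score 2 and 2. Signs reversed (log2 values) for Bbc3 in basophil-mast-like cells between fusion libraries (0.17, marker score), Phlda3 in granulocyte progenitor-like cells (MLL::ENL against Control 1.11 strict and 0.58 thinned; Skida1-deleted against Control 0.49 strict and 0.39 thinned), Pmaip1 in granulocyte progenitor-like cells of MLL::ENL (-0.27, thinned), Pmaip1 in megakaryocyte-like cells of Skida1-deleted against Control (-0.94, G1, with 14 Control cells) and Zmat3 in erythroid-like cells of Skida1-deleted against Control (0.74, G1). No paired analysis was possible because each group had 1 library. Counts under about 20 UMIs limit Zmat3, Sesn2 and Phlda3 in the small classes.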

Other observations

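B-lineage-like cells were too few for the comparisons (44, 90 and 97 cells for Control, MLL::ENL and Skida1-deleted). Trp53inp1 stood at 71.8, 59.4 and 55.3 CPM (22, 30 and 21 UMIs), against 13, 17.8 and 13.8 CPM in HSPC-like cells, with counting intervals apart in each library. Cdkn1a stood at 48.9, 37.6 and 31.6 CPM (15, 19 and 12 UMIs) and Bax at 160, 111 and 142 CPM. Zmat3 had 0 UMIs in each of the 3 libraries, with upper 95% limits of 12.0, 7.3 and 9.72 CPM.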
